A study of Rattus norvegicus with 4 samples.

Results

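The comparison described here was between 2 of the study's 4 arrays of rat hippocampal RNA, the array from animals given kainic acid together with the peptide NAP (KA+NAP) and the array from animals given kainic acid alone (KA). The members were chosen by the array labels, and the measure was KA+NAP minus KA, the difference of log2(signal + 10), where signal is the fluorescence intensity of a gene's brightest probe set. The other 2 arrays came from animals given the vehicle, PBS, or NAP alone, and their signals are printed beside those of the pair as the level without KA. All animals were Sprague-Dawley rats, every agent was injected into the hippocampus, and tissue was taken 24 h later. The design text gives NAP as 1e-13 M for the KA+NAP group. The KA dose, the age and sex of the animals and how many of them stand behind an array were not given in the sources used here, so an array may stand for 1 animal or for a pool. The design text names the CA3 area as the tissue, while the treatment note names hippocampi. The design addresses what the peptide changes in tissue injured by the excitotoxin.

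Each group had 1 array. There is no replicate error, no test and no p-value for any value below, and a difference of at least 2-fold (1 or more on the log2 scale) is only a fixed rule of size. A gene listed as higher or lower was so on these arrays, and the spread between animals is unknown.

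Kainic acid is an agonist of the kainate and AMPA types of glutamate receptor. CA3 pyramidal neurons receive the mossy fibres of dentate granule cells, carry kainate receptors at those synapses and are among the neurons most readily killed by the agent, through seizure discharge and calcium entry. NAP is a peptide cut from the sequence of ADNP (activity-dependent neuroprotective protein), a protein induced by vasoactive intestinal peptide, and has been tied to microtubules through the end-binding (EB) proteins. In injured hippocampus microglia take up debris and present antigen on MHC class II, astrocytes make intermediate filaments, and granule cells change their stores of neuropeptides such as dynorphin, enkephalin and neuropeptide Y.

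Over the 9489 genes whose probe set had a mean signal above 62.75, the median of the non-control probe sets, log2 signals of KA and KA+NAP correlated at r = 0.97. Median signals of the 4 arrays lay between 58 and 65. The 3′ to 5′ signal ratio of the beta-actin controls, a measure of how far labelled RNA reaches toward the 5′ end, was 11.4 on the KA array and 15.5 on the KA+NAP array, with 14.1 on PBS and 7.92 on NAP, and the GAPDH ratio ranged from 1.31 to 1.56. Of 23 listed CA3 pyramidal markers on the array 17 passed this filter. Among them, on KA and KA+NAP, were Neurod6 at 2104 and 1789 and Nptx1 at 5481 and 5020. Grik4, a kainate receptor subunit of these neurons, had 365 and 191. Other listed markers were dim, such as Plagl1 at 46 and 26, St18 at 12 and 20 and Iyd at 1 and 2. Whether the markers that passed are restricted to CA3 was not tested. Markers of CA1 (Wfs1, Mpped1, Fibcd1) and of dentate granule cells (Prox1, Calb1) were measured as well, so the tissue held RNA that also marks the neighbouring fields.

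Antigen presentation and phagocyte genes were higher on the KA+NAP array than on the KA array. A smaller group of genes, including the precursors of dynorphin, enkephalin and neuropeptide Y, was lower on the KA+NAP array. With KA+NAP 144 genes reached a difference of at least 2-fold upward (1.52% of the genes) and 57 reached it downward (0.601%). The median difference over all 9489 genes was 0.03 on the log2 scale, 53.8% of the genes lay above 0, and the central 90% ran from -0.47 to 0.65. A high signal on 1 array of the pair can carry a gene past the filter, and such a gene then has to differ. Of the 144 higher genes 31 passed only through KA+NAP, in that their mean over the other 3 arrays was not above 62.75, and of the 57 lower genes 8 passed only through KA. With the filter on the mean of PBS and NAP, an alternative chosen after seeing the data, 114 of 9326 genes were at least 2-fold higher (1.22%) and 48 lower (0.515%). For NAP minus PBS, the same peptide without KA, 100 genes reached 2-fold upward (1.05%) and 23 downward (0.242%). The KA+NAP minus KA differences had a standard deviation across genes of 0.37 against 0.32 for NAP minus PBS. Dim genes made up much of both tails, since 81 of the 144 higher genes and 28 of the 57 lower genes lay in the lowest quartile of signal, where the standard deviation was 0.46 against 0.27 in the highest.

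**Figure D1:**
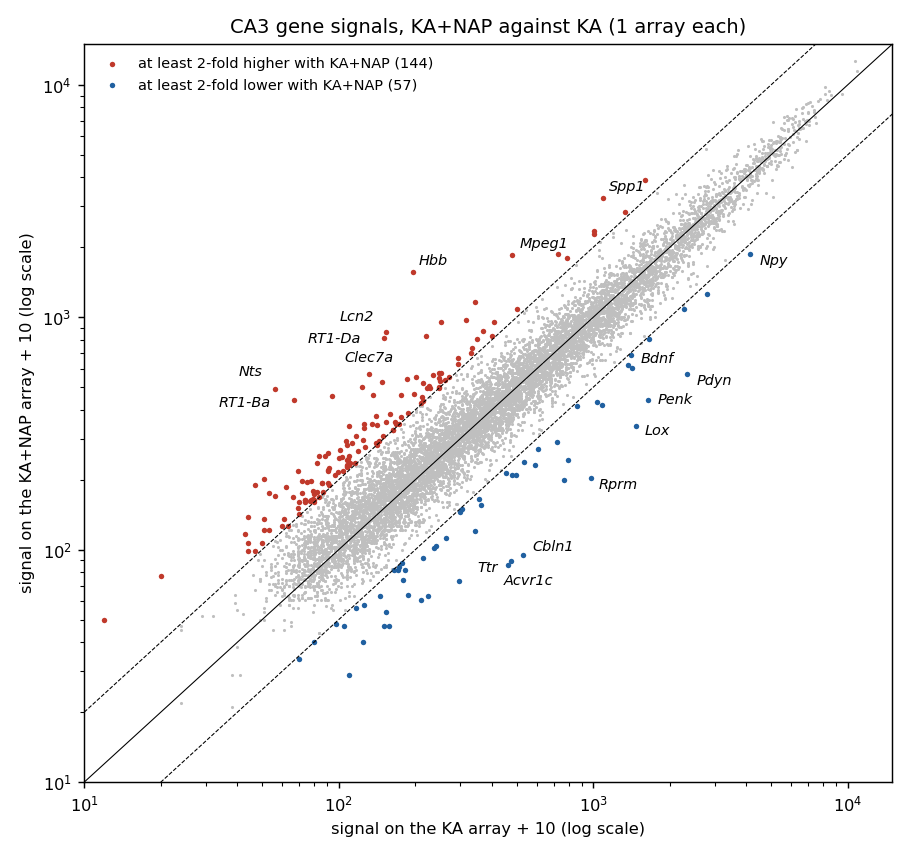
Signal + 10 of each of the 9489 genes on the KA array (horizontal, log scale) and the KA+NAP array (vertical, log scale), 1 array per group, with the solid line at equal values and the dashed lines at 2-fold. Red dots are the 144 genes at least 2-fold higher with KA+NAP, such as RT1-Ba at 57 and 431, and blue dots the 57 at least 2-fold lower, such as Penk at 1635 and 429.

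The genes of MHC class II, the molecules that present peptide antigen to helper T cells, differed as a group. Of 13 listed, 11 were on the array and 9 passed the filter, all 9 lay above 0 in KA+NAP minus KA, 6 were at least 2-fold higher, and their median was 1.14 against 0.03 for all genes. In NAP minus PBS the median of the same genes was 0.82. RT1-Db1 passed only through KA+NAP, and with the filter on PBS and NAP 8 genes passed, 5 of them 2-fold higher. Signals are given here and throughout in the order PBS, KA, KA+NAP and NAP. RT1-Ba, an alpha chain, had signals of 47, 57, 431 and 141 and a KA+NAP minus KA difference of 2.72. RT1-Da, the alpha chain of the other isotype, had 99, 140, 805 and 196, a difference of 2.44. For both chains KA lay closer to PBS than to KA+NAP, and the KA+NAP array stood above the other 3. Choosing genes by a high difference favours a high KA+NAP or a low KA signal. Nothing is therefore read from that order, here or for the genes below.

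Cd74, the invariant chain that guides class II to the endosome, had 108, 211, 821 and 348 and a difference of 1.91. RT1-Db1, a beta chain, had 31, 59, 208 and 90 (1.66). Ifi30, a thiol reductase that unfolds antigen in the lysosome, had 220, 324, 727 and 396 (1.14). In these 3 genes, too, KA+NAP was the highest array, and NAP alone lay above PBS. RT1-DMb, a chain of the peptide exchange factor, had 233, 284, 620 and 263 (1.10), while its partner RT1-DMa had 233, 219, 322 and 269 (0.54). Ctss and Lgmn, endosomal proteases that trim the invariant chain and antigen, were under 2-fold apart, with Ctss at 3777, 2102, 3394 and 3107 (0.69) and Lgmn at 1278, 1891, 2300 and 1491 (0.28). Ctss was highest on PBS, so on this gene KA+NAP lay nearer to the arrays without KA. The beta chain RT1-Bb, at 14, 27, 172 and 38, and the master regulator Ciita, at 25, 13, 36 and 13, were too dim to pass.

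The promoters of 4 class II chains are printed because their genes lie among or beside the highest differences and share a motif, and that of Nts because it had the highest difference of all. The sequences are RefSeq's, on build GRCr8, from 250 bases before to 50 bases after the gene's start, 5′ to 3′ on the gene's own strand. Capitals mark the motif, which is the Y box CTGATTGG in the class II genes and the AP-1 motif TGACTCA, read on the opposite strand, in Nts. The windows are RT1-Ba, chr20:4576807-4577106 (+ strand), RT1-Bb, chr20:4604069-4604368 (- strand), RT1-Da, chr20:4515165-4515464 (+ strand), RT1-Db1, chr20:4560113-4560412 (- strand), and Nts, chr7:39460839-39461138 (- strand).
RT1-Ba: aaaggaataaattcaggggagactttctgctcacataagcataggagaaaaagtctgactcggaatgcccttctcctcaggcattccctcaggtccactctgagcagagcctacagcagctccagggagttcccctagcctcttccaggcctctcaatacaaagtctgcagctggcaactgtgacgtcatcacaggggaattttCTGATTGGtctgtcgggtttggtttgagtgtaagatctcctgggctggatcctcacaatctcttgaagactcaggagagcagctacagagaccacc
RT1-Bb: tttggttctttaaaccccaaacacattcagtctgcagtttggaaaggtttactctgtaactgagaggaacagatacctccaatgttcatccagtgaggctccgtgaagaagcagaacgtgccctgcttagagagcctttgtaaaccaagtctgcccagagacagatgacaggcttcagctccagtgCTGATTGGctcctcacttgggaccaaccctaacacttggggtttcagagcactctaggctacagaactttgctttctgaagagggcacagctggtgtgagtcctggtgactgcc
RT1-Da: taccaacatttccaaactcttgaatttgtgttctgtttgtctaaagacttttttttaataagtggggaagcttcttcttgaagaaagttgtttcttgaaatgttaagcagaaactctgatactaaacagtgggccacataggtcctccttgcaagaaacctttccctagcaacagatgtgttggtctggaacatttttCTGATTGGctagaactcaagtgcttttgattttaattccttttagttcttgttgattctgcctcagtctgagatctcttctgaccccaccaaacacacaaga
RT1-Db1: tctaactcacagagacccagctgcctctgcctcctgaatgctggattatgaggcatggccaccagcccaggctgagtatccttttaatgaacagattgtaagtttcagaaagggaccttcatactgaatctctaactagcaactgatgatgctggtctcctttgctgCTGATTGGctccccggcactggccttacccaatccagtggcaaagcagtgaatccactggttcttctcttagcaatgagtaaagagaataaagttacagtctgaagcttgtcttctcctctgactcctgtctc
Nts: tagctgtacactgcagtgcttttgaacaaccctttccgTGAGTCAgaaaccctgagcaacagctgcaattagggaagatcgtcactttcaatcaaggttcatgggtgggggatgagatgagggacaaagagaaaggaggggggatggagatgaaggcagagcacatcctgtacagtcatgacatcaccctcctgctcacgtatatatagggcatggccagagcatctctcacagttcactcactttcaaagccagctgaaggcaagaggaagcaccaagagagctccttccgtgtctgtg

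The Y box, the element of class II promoters that nuclear factor Y binds, began 46, 64, 52 and 83 bases before the start of RT1-Ba, RT1-Bb, RT1-Da and RT1-Db1. With exact letters on both strands it was in 3.55% of all 27457 RefSeq promoter windows and in 5.10% of the 7938 promoters of genes past the filter. Of the 8 class II list promoters past the filter 3 held it, those of RT1-Ba, RT1-Da and RT1-Db1. Among promoters of genes at least 2-fold higher 8 of 108 held it and among those at least 2-fold lower 1 of 46. The AP-1 motif, a site of Fos and Jun dimers, was in 3.01% of the promoters past the filter, in 6 of the 108 and in 3 of the 46. In Nts it began 212 bases before the start. The PU.1 motif GAGGAAGT, a site of a myeloid factor, was in 2.29% of the promoters past the filter, in 6 of the 108 and in 0 of the 46. The CRE motif TGACGTCA, a site of CREB, was the last of the 4 motifs searched. It was in 3.46% of the promoters past the filter, in 1 of the 108, that of RT1-Ba, and in 0 of the 46. A match says only that these letters stand in the window.

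Phagocyte genes were higher with KA+NAP almost throughout. Of 43 listed, 38 were on the array and 33 passed, all 33 lay above 0, 15 were at least 2-fold higher, and their median was 0.97, with 0.66 in NAP minus PBS. Cd68 passed only through KA+NAP, and with the filter on PBS and NAP 29 passed, all above 0 and 13 of them 2-fold higher. Clec7a, the beta-glucan receptor dectin-1, had 10, 122, 559 and 92 on the 4 arrays and a KA+NAP minus KA difference of 2.11. Cybb, the catalytic subunit of the NADPH oxidase, had 27, 113, 492 and 140 (2.03), and its partner Cyba had 114, 143, 346 and 166 (1.22). Both oxidase subunits were highest with KA+NAP. Cd68, a lysosomal membrane protein, had 24, 74, 244 and 69 (1.60). Spp1, osteopontin, had 47, 1087, 3248 and 153 (1.57), so that a gene already high with KA was higher still with KA+NAP. Itgam, the integrin chain CD11b, had 56, 62, 188 and 91 (1.46), with PBS and KA close together and KA+NAP apart.

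Rac2, a GTPase of the oxidase, had a difference of 1.43, Cd53, a leukocyte tetraspanin, 1.40, and Ctsc, the protease cathepsin C, 1.27. Aif1, which codes for the microglial marker Iba1, had 203, 219, 486 and 341 (1.11). Mpeg1, a pore-forming protein of macrophages, had 488, 471, 1843 and 1036 (1.95), Cd300c2, an activating receptor, 32, 242, 943 and 135 (1.92), and Mnda, a myeloid nuclear protein, 8, 41, 191 and 15 (1.98). Each of these 3 was highest with KA+NAP, an order that choosing the highest differences favours, and Mnda passed the filter only through that array. Under 2-fold apart were Lgals3 at 113, 1185, 2299 and 353 (0.95), Gpnmb at 225, 1771, 3410 and 1073 (0.94) and Cd14 at 69, 517, 624 and 190 (0.27). Apoe, which astrocytes also make, had the smallest difference of the list, 0.08.

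Fc receptors and their ITAM adaptors, which carry the signal of bound antibody, lay on the same side. Fcer1g and Tyrobp, both at least 2-fold higher, are also counted on the phagocyte list, so these lists overlap. Of 21 listed, 17 were on the array and only 7 passed, all 7 above 0, with 4 at least 2-fold higher, a median of 1.004 and 0.59 in NAP minus PBS. The median was under 2-fold, between 0.86 and 0.97, with a pseudocount of 32, without a filter and with either other scaling. Fcer1g, the common gamma chain, had 425, 715, 1865 and 645 (1.37). Fcgr1a, the high-affinity IgG receptor, had 53, 115, 286 and 91 (1.24), and Tyrobp, the adaptor DAP12, had 54, 131, 273 and 112 (1.01). Fcgr3a was at the edge of the size rule with 105, 153, 317 and 112 (1.004), and the inhibitory receptor Fcgr2b just under it (0.93). Trem2, the lipid receptor of microglia that signals through Tyrobp, was dim at 27, 21, 33 and 22 and did not pass.

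Of the genes listed as homeostatic microglia genes, several were lower with KA than with PBS and stayed below PBS with KA+NAP. Gpr84, Sparc, Mef2c and Tgfbr1 of the same list were not lower with KA than with PBS. Of 19 listed, 11 passed, 10 lay above 0, none was 2-fold apart, and the median was 0.58, with 0.05 in NAP minus PBS. P2ry12, the ADP receptor of surveying processes, had 1071, 232, 368 and 773 (0.64). Tmem119, a microglial membrane protein, had 289, 92, 144 and 253 (0.59), and Gpr34, a lysophospholipid receptor, 217, 87, 145 and 173 (0.68). These 3 genes were at their lowest with KA, and KA+NAP lay between KA and the arrays without KA. Tgfbr1, which many other cells express, had the highest difference of the list (0.69) and Mef2c, which neurons also express, was the member below 0 (-0.48). Csf1r, the receptor for colony-stimulating factor, had 414, 296, 448 and 430 (0.58), with KA+NAP near both arrays without KA. In bulk tissue more cells of a type and more RNA per cell cannot be told apart.

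Markers of blood-derived and border myeloid cells differed in the same direction as these genes. Of 26 listed, 10 passed, 9 lay above 0, 7 were at least 2-fold higher, and the median was 1.26, with 0.35 in NAP minus PBS. Of the 7, 3 passed only through KA+NAP (S100a8, S100a9 and Ly6c), with the filter on PBS and NAP 4 of 6 passing genes were 2-fold higher, and without a filter the median was 0.79. Mrc1, the mannose receptor of border macrophages, had 62, 34, 128 and 111 (1.65), and Lyve1, a hyaluronan receptor of the same cells, 137, 52, 176 and 196 (1.58). For both, KA was the low array and KA+NAP lay near NAP alone. S100a9 and S100a8, the calprotectin subunits of neutrophils, had 13, 116, 337 and 59 (1.46) and 16, 59, 141 and 40 (1.13). Mmp9 was the passing member below 0, at 39, 233, 159 and 36 (-0.52). Of members that did not pass, Il1r2 had 4, 96, 40 and 12, Camp 2, 4, 3 and 1, Cxcr2 4, 2, 2 and 15 and Mmp8 13, 7, 16 and 1. Ly6c, a monocyte surface protein, had 36, 91, 258 and 43 (1.41), and Itgal, an integrin chain of leukocytes, 57, 98, 271 and 174 (1.38). The summed signal of the list's members on the array was 1537, 2097, 3813 and 1970. None was at 0 on the KA or KA+NAP array, but defining members such as Ccr2, at 2, 12, 22 and 4, and Csf3r, at 29, 28, 44 and 37, were dim. The part of infiltrating cells in the phagocyte and class II differences was not tested.

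Red blood cell and lymphocyte genes ordered the 4 arrays differently, the summed signal of the former being highest with NAP alone and that of the latter with KA+NAP. Hbb, the haemoglobin beta chain, had 5, 186, 1549 and 1430, a difference of 2.99, and the alpha chain Hba-a3 had 19, 37, 179 and 125 (2.01). Both were high on the 2 arrays with NAP, and Hba-a3 passed the filter only through KA+NAP. Pf4, a platelet chemokine, had 21, 44, 77 and 122 (0.69), and Car2, which glia also express, 1153, 994, 884 and 1305 (-0.17, with 0.14 on its other probe set). The other listed members on the array were dim, with Alas2 at 3, 10, 34 and 20, Ppbp at 12, 3, 14 and 16, Gp9 at 4, 3, 3 and 4, Ahsp at 2, 3, 2 and 9, Slc4a1 at 27, 25, 21 and 45 and Itga2b at 39, 75, 48 and 52. The list's summed signal was 1266, 1343, 2632 and 3003, most of it Hbb and Car2. Of 24 lymphocyte markers on the array, 1 passed, Lck at 63, 66, 71 and 66 (0.09). The summed lymphocyte signal was 419, 415, 700 and 413. Dim members of the list were mixed. Highest with KA+NAP were Cd8a at 1, 15, 72 and 2, Cd3e at 16, 2, 39 and 11 and Zap70 at 40, 34, 81 and 52. Lowest there were Cd4 at 42, 23, 3 and 19 and Klrd1 at 8, 10, 2 and 6, while Cd3d had 7, 4, 4 and 13. Whether blood content bears on the immune differences was not tested.

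**Figure D2:**
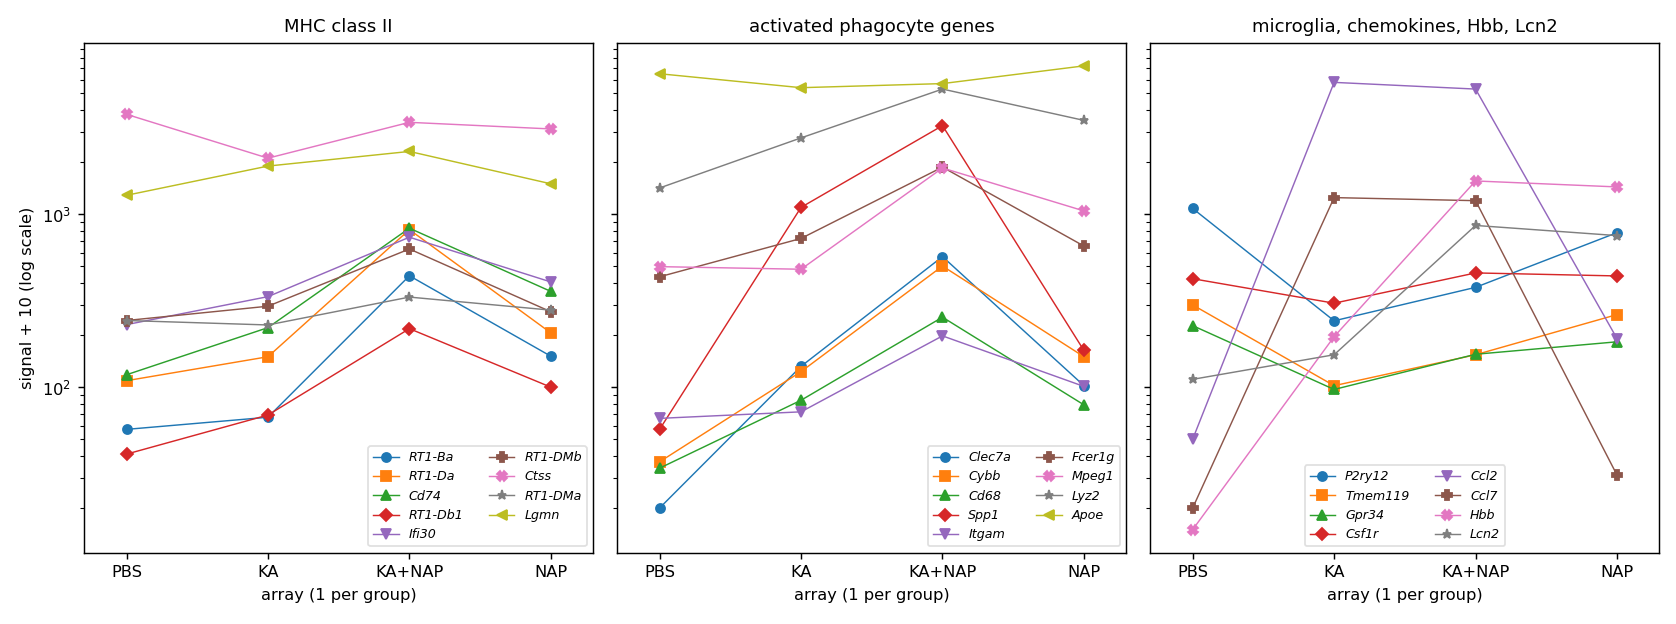
Signal + 10 (vertical, log scale) of immune genes on the PBS, KA, KA+NAP and NAP arrays, 1 array per group, with each gene's 4 points joined by a line. MHC class II chains such as RT1-Da (140 with KA, 805 with KA+NAP) and phagocyte genes such as Cybb (113 and 492) peak with KA+NAP, while Ccl2 stays near one level on both arrays with KA (5786 and 5291). Choosing genes by a high difference favours a high KA+NAP signal.

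Chemokines and cytokines did not follow the phagocyte genes. Of 26 chemokine genes on the array 11 passed, 6 above 0 and 5 below, with a median of 0.24. That median was -0.12 with the filter on PBS and NAP and with the stricter filter. Of the 11, 3 had passed only through KA+NAP and 1 only through KA. Ccl2, the monocyte attractant, had 40, 5786, 5291 and 181, a difference of -0.13, and Ccl7, its close relative, had 10, 1239, 1189 and 21 (-0.06). Both were far above PBS on each array with KA and nearly equal on the 2. Cxcl16, a scavenger receptor and chemokine of macrophages, had 130, 216, 497 and 155 (1.17) and was the only passing chemokine at least 2-fold apart. Cxcl13, a B cell attractant, had 68, 14, 35 and 327 (0.91), Cxcl1 19, 94, 157 and 19 (0.68) and Ccl27 192, 170, 120 and 156 (-0.47). Of 35 cytokine and receptor genes 15 passed, 11 above 0, none 2-fold apart, with a median of 0.10. The largest were the interleukin-10 receptor Il10ra (0.74), Il6r (0.50), Il17ra (0.49) and the interferon-gamma receptor Ifngr1 (0.45). The inflammatory cytokines themselves were too dim to pass, with Tnf at 16, 21, 34 and 17, Il1b at 42, 50, 67 and 39 and Il6 at 10, 30, 27 and 3.

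Complement, interferon and MHC class I genes lay mostly above 0. Of 18 complement genes on the array 13 passed, 10 above 0, with a median of 0.58 (0.61 in NAP minus PBS), and 2 were at least 2-fold higher, the complement receptor chain Itgam given above and the anaphylatoxin receptor C5ar1 at 51, 116, 323 and 121 (1.40). Serping1, the C1 inhibitor, had 235, 282, 529 and 611 (0.88) and C1qc, a chain of the initiating C1q complex, 256, 192, 323 and 199 (0.72). On C1qc the KA+NAP array was the highest of the 4, while on Serping1 it lay below NAP. Interferon response genes passed in 24 of 33 cases, 21 above 0, with a median of 0.41 against 0.05 for the same genes in NAP minus PBS. The 3 at least 2-fold higher were the membrane proteins Ifitm1 at 30, 192, 545 and 157 (1.46) and Ifitm2 at 42, 65, 186 and 103 (1.39) and the signal transducer Stat2 at 171, 163, 336 and 199 (a difference of 1, on the edge of the rule, with 0.36 on its other probe set). Ifi44 followed with 97, 65, 135 and 76 (0.95), while the antiviral gene Mx1 lay the other way at 140, 143, 101 and 199 (-0.46). Of the class I list 9 of 11 passing members lay above 0, with a median of 0.43 (0.11 in NAP minus PBS). Psmb9 and Psmb8, subunits of the immunoproteasome that cuts peptides for class I, had differences of 1.05 and 0.60, the class I gene RT1-T24-4 had 0.83 and the proteasome activator Psme1 0.53. Class I genes are near-identical copies, and a probe set may read more than 1 of them.

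Astrocyte genes were close on the 2 arrays, apart from Lcn2. Of 23 reactive astrocyte genes on the array 19 passed, 13 above 0, with a median of 0.26 (0.57 in NAP minus PBS). Lcn2, lipocalin-2, an iron carrier made by reactive astrocytes and neutrophils, had 101, 144, 852 and 743, a difference of 2.48, and was high on both arrays with NAP. Gfap, the astrocyte filament protein, had 5744, 8147, 9776 and 8065 (0.26) and the filament protein vimentin, Vim, 851, 3688, 5255 and 1588 (0.51). Nes, nestin, had 55, 292, 560 and 48 (0.92) and the hyaluronan receptor Cd44 44, 700, 860 and 96 (0.29). Hspb1, the small heat shock protein of reactive glia, had 123, 5423, 5894 and 550 (0.12). On Vim, Nes, Cd44 and Hspb1 both arrays with KA lay above both without it. Ptgs2, cyclo-oxygenase-2, which neurons also induce, lay lowest on the list at 1449, 3293, 1759 and 970 (-0.90), and the metalloreductase Steap4 had 0.62. The 20 passing homeostatic astrocyte genes had a median of 0.10, none reaching 2-fold, the largest being the claudin Cldn10 at 449, 63, 119 and 411 (0.82), Atp1b2 (0.59), Fgfr3 (0.54) and the connexin Gjb6 (0.48).

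Vascular, fibroblast and matrix genes were mostly higher with KA+NAP, by less than the myeloid genes. Of 29 passing endothelial and barrier genes 25 lay above 0, with a median of 0.50 (0.31 in NAP minus PBS). Anpep, an aminopeptidase of pericytes and myeloid cells, had 51, 97, 284 and 68 (1.46) and Vwf, von Willebrand factor, 210, 390, 819 and 511 (1.05). Abcb1a, the barrier efflux pump, had 144, 98, 192 and 158 (0.90) and Tie1, an endothelial receptor, 64, 61, 120 and 100 (0.87). Of 31 matrix genes 26 lay above 0, with a median of 0.46 (0.36 in NAP minus PBS), 3 higher and 2 lower by 2-fold or more. Fn1, fibronectin, had 290, 994, 2274 and 683 (1.19) and Dcn, decorin, 247, 81, 211 and 359 (1.28). Lox, the enzyme that cross-links collagen, stood apart from the rest of the list at 19, 1458, 332 and 30, a difference of -2.10, and Acan, the perineuronal net proteoglycan aggrecan, had 61, 115, 30 and 52 (-1.64). Acan passed only through KA. With the filter on PBS and NAP 25 matrix genes passed, 3 at least 2-fold higher and 0 lower, so neither Lox nor Acan was kept. Lox thus was high on the KA array, at an intermediate signal with KA+NAP and low on both arrays without KA.

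The median of meningeal and fibroblast genes was 0.53 with KA (KA+NAP minus KA) and 1.26 without it (NAP minus PBS), with 14 of 17 above 0 in the former. Igf2, a growth factor of the meninges, had 157, 119, 232 and 528 (0.91), Islr 67, 52, 108 and 175 (0.93) and the retinoid carrier Crabp2 33, 282, 148 and 120 (-0.89). Their levels with NAP alone were above PBS in each case, and the amount of meninges in each sample was not tested. Matrix proteases and inhibitors had a median of 0.26 with none at 2-fold, from the membrane protease Mmp14 (0.79) to the gelatinase Mmp9 at 39, 233, 159 and 36 (-0.52), with Timp2 at 0.52 and Timp1 at 0.43. Choroid plexus and ependymal genes passed in 7 of 18 cases. Ttr, transthyretin, the carrier made by choroid plexus, had 354, 453, 76 and 359 and a difference of -2.43, so the KA+NAP array alone was low. The secreted enzyme Enpp2 had 1079, 1111, 818 and 1285 (-0.44), and the ciliary genes Foxj1 (0.40), Tekt1 (0.26), Tmem212 (-0.10), Dynlrb2 (-0.16) and Rsph1 (-0.33) were less apart. Defining plexus genes did not pass, with Kl at 3, 5, 10 and 6, Folr1 at 35, 54, 32 and 30, Otx2 at 22, 18, 16 and 14, Aqp1 at 62, 31, 43 and 46 and Kcnj13 at 30, 28, 37 and 34.

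Cell cycle genes passed in 26 cases, 23 above 0 and 5 at least 2-fold higher, with a median of 0.54 (0.27 in NAP minus PBS). Of those 5, 4 passed only through KA+NAP (Mki67, Cdca3, Cdk1 and Cks2). With the filter on PBS and NAP 16 passed, 13 above 0 and 0 at 2-fold, with a median of 0.28. Mki67, the proliferation marker Ki-67, had 24, 81, 250 and 57 (1.51), and Top2a, the topoisomerase of dividing cells, 31, 107, 298 and 70 (1.40). Cdca3 had 1.28, the kinase Cdk1 1.12 and its subunit Cks2 1.04. For Mki67 and Top2a the order of the arrays was PBS, NAP, KA and KA+NAP from low to high. Actin-binding genes lay above 0 in 37 of 38 cases, with a median of 0.48 (0.51 in NAP minus PBS). Capg, a capping protein of macrophages, had 37, 138, 516 and 92 (1.83), the calcium binding S100a6 51, 125, 337 and 65 (1.36), the cross-linker Flna 114, 360, 862 and 172 (1.24) and S100a11 1.19. Several of these are abundant in leukocytes, and they differed in the same direction as the phagocyte list.

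**Figure D3:**
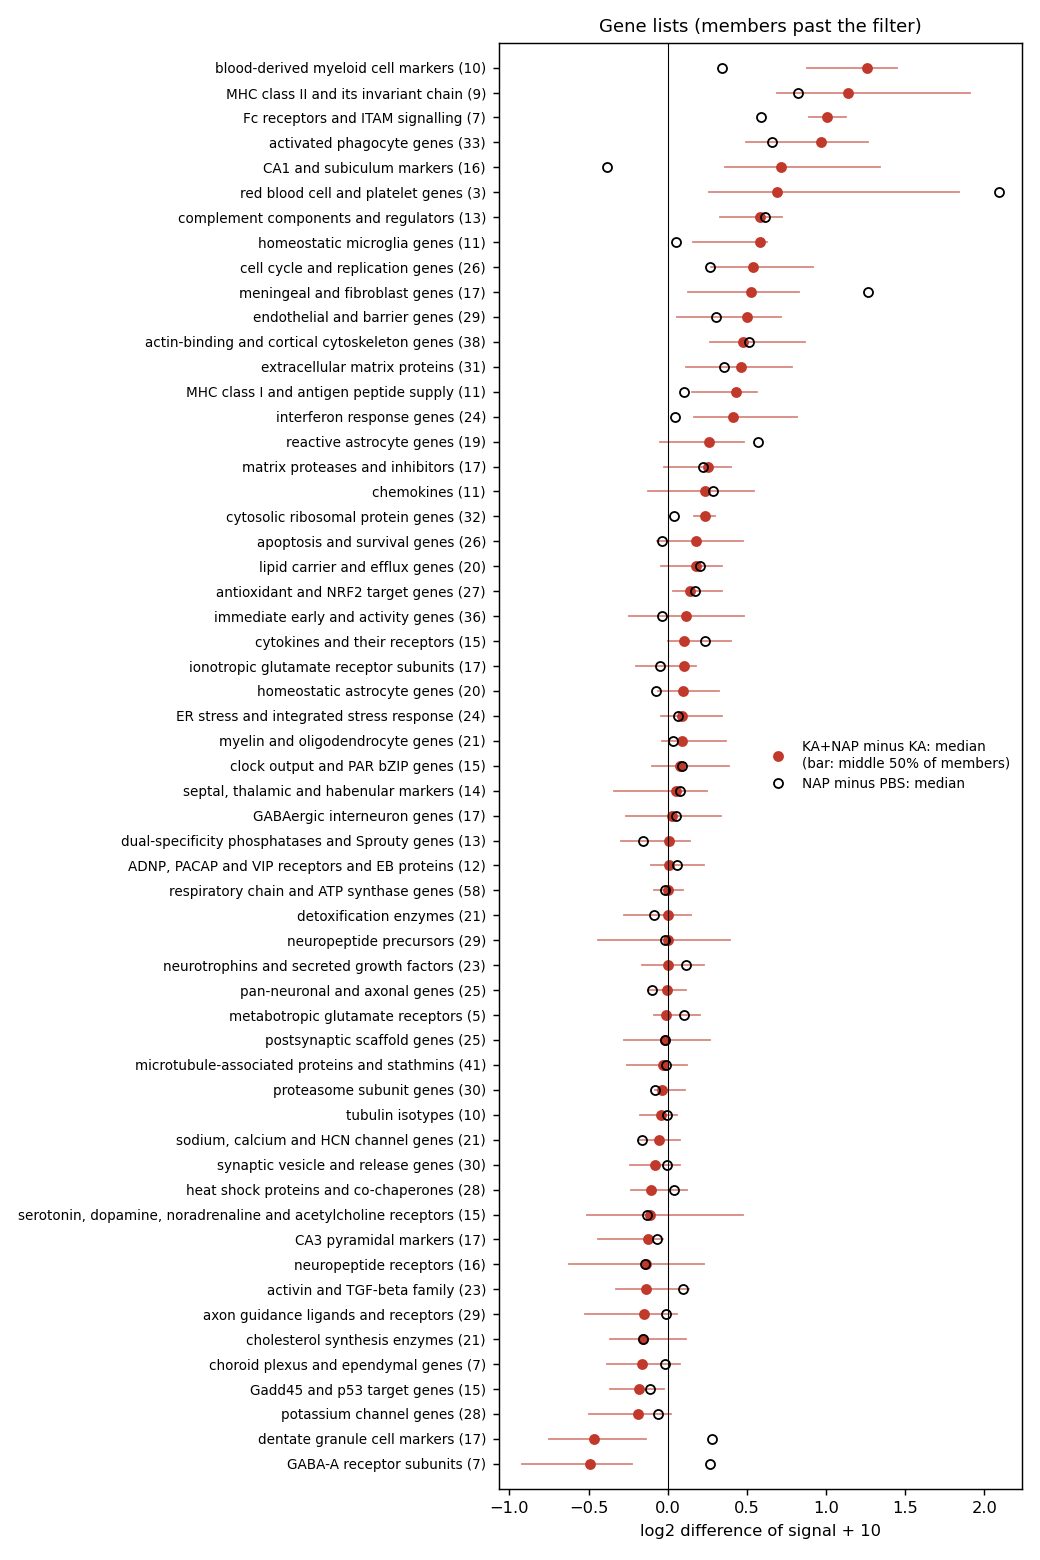
Median KA+NAP minus KA difference (filled red, with a bar over the middle 50% of members) and median NAP minus PBS difference (open) of each gene list with 3 or more members past the filter, given in brackets, on the log2 scale of signal + 10. Immune lists lie to the right (MHC class II at 1.14), tubulins and respiratory chain genes near 0 (-0.05 and 0.00), and dentate granule cell markers and GABA-A subunits to the left (-0.46 and -0.49).

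Neuropeptide genes held the highest difference and several of the lowest. Of 39 precursor and granule genes on the array 29 passed, 14 above 0 and 14 below, with a median of 0.00. Nts, the precursor of neurotensin, had 616, 46, 483 and 360 and a KA+NAP minus KA difference of 3.14, so that KA alone was low and KA+NAP lay between the arrays without KA. Its AP-1 match is in the promoter printed above. Pdyn, which codes for dynorphin, the opioid of mossy fibres, had 1146, 2330, 561 and 1858 (-2.03). Penk, which codes for enkephalin, had 341, 1635, 429 and 358 (-1.91). Npy, neuropeptide Y, which damps glutamate release in seizures, had 749, 4142, 1868 and 838 (-1.14). KA was the highest array for all 3, an order that choosing low differences favours. KA+NAP lay in different places, below PBS for Pdyn, near PBS for Penk and between KA and PBS for Npy.

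Cbln1, a secreted organiser of synapses kept on this list, had 30, 521, 85 and 82 (-2.48), and its second probe set had a difference of -2.62. Other precursors well above PBS on the KA array were close to it on the KA+NAP array. Trh, thyrotropin-releasing hormone, had 11, 1242, 1335 and 29 (0.10), Gal, galanin, 89, 410, 504 and 70 (0.29), and Tac1, substance P, 29, 133, 133 and 73 (0.00). The lower signals with KA+NAP were thus not shared by every precursor that was high with KA. Vip had 574, 390, 637 and 569 (0.69) and Cck 1636, 1098, 1561 and 1140 (0.50). Of 16 neuropeptide receptors 10 lay below 0, the lowest being the sortilin relative Sorcs3 at 241, 758, 189 and 206 (-1.95), with -1.27 on its other probe set. The somatostatin receptors Sstr1 at 290, 236, 124 and 414 (-0.88) and Sstr3 at 351, 306, 192 and 311 (-0.65) and the neuropeptide Y receptor Npy5r at 323, 126, 78 and 190 (-0.63) followed.

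Activity and growth factor genes divided in the same way. Bdnf, brain-derived neurotrophic factor, had 655, 1412, 594 and 642 (-1.24), with KA high and the other 3 arrays between 594 and 655. The activin subunit Inhba had 160, 1534, 767 and 138 (-0.99) and lay just outside the size rule, and the activin family receptor Acvr1c had 86, 464, 79 and 84 (-2.41), at the level of PBS. Rgs4, which shortens G-protein signals, had 731, 2238, 1122 and 902 (-0.99), with -1.25 on its other probe set. On these genes KA was the highest array, which choosing low differences favours, and KA+NAP was near PBS or between the 2. Fos, the AP-1 subunit, differed from them with 295, 1477, 1760 and 379 (0.25), as did Atf3 with 18, 161, 178 and 16 (0.14) and Hbegf with 55, 455, 427 and 60 (-0.09), which were alike on both arrays with KA.

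Of 36 passing immediate early genes 21 lay above 0, with a median of 0.12. The nuclear receptors Nr4a2 at 249, 109, 256 and 233 (1.16) and Nr4a1 at 169, 83, 156 and 116 (0.84) were low with KA only. Of 23 growth factor genes 11 lay above 0 and 11 below, among them the heparin-binding factor Ptn at 2399, 1320, 2824 and 2416 (1.09), its relative Mdk (0.67) and Ntf3, neurotrophin-3 (-0.46). Activin and TGF-beta genes lay below 0 in 15 of 23 cases, with Tgfbr1 at 0.69 and the receptor Acvr1 at 556, 678, 426 and 341 (-0.66). Dusp6, a phosphatase that switches off ERK, had 383, 305, 964 and 332 (1.63) on its brightest probe set, but its other 2 probe sets had 1.30 and -0.43. Dusp9, of the same family, had 243, 155, 72 and 175 (-1.01), Spred3 had 0.72 and Dusp2 -0.39.

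Several of the 20 lowest genes lie outside neuropeptide signalling. Choosing the lowest differences favours a high KA signal, so nothing is read from the KA array standing highest. Epcam, Gypc, Serpina11, Rpain and Efna5 passed the filter only through KA. Rprm, a p53 target that arrests the cell cycle, had 54, 975, 194 and 89 (-2.27), and Perp, another p53 target, 256, 786, 234 and 340 (-1.71). Epcam, an epithelial adhesion molecule, had 27, 287, 63 and 28 (-2.02). Ptger3, a prostaglandin E2 receptor, had 63, 214, 53 and 73 (-1.83). On all 4 of these the KA array was highest, and KA+NAP lay slightly below both arrays without KA for Perp and Ptger3 and above both for Rprm and Epcam. The axon guidance ligand Efna5 had 47, 144, 44 and 63 (-1.51), Gypc, a membrane skeleton protein, 64, 200, 51 and 70 (-1.78), and Serpina11, a serpin, 33, 147, 37 and 50 (-1.74). The rest of the 20 were Prss35, Rpain, Tmem71, Rrs1-ps9 and Ube3al1, with differences of -1.92, -1.68, -1.55, -1.52 and -1.38. Among the 20 highest not yet described were Plac9 at 45, 2, 40 and 263 (2.06), Prcp, a peptidase, at 56, 43, 165 and 36 (1.72), and the serotonin receptor Htr5b at 191, 10, 67 and 97 (1.94). Prcp passed the filter only through KA+NAP. Plac9 and Htr5b had KA signals of 10 or less, where the size of the difference rests on the added 10.

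**Figure D4:**
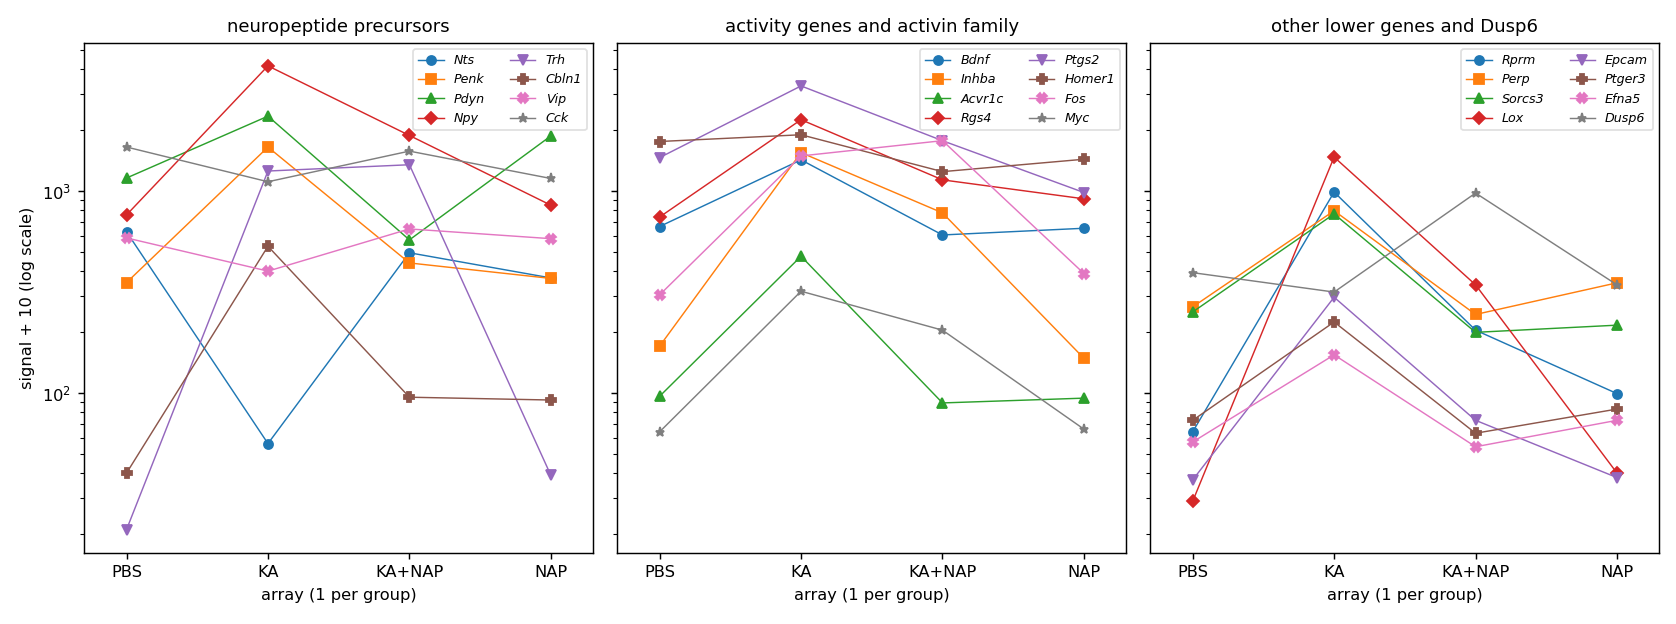
Signal + 10 (vertical, log scale) of neuropeptide, activity and other genes on the PBS, KA, KA+NAP and NAP arrays, 1 array per group, with each gene's 4 points joined by a line. Penk (1635 with KA, 429 with KA+NAP), Bdnf (1412 and 594) and Rprm (975 and 194) peak with KA, Nts dips with KA (46, against 483), and Trh is level on both arrays with KA (1242 and 1335). Choosing genes by a low difference favours a high KA signal, and by a high difference a low one.

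Markers of the 3 fields of the hippocampus did not differ in the same direction. CA1 and subiculum markers were higher with KA+NAP, with 13 of 16 above 0, 7 higher and 1 lower by 2-fold or more, and a median of 0.72 against -0.38 in NAP minus PBS. With the filter on PBS and NAP 17 passed, 14 above 0, 7 higher and 1 lower by 2-fold or more, with a median of 0.48. Pou3f1, a transcription factor of CA1, had 376, 84, 450 and 179 (2.29), Mpped1 1448, 334, 1159 and 889 (1.76) and Fibcd1 368, 72, 226 and 86 (1.53). Each of these 3, and Nts of the same list, was lowest with KA, and KA+NAP lay above both KA and NAP alone. Ccn3 had 330, 50, 116 and 459 (1.07) and Wfs1, the wolframin gene, 145, 62, 129 and 96 (0.95). Dcn and Fn1, also kept on this list and counted among those at least 2-fold higher, are made by fibroblasts and vessels. Lratd1 at 1055, 1400, 680 and 1227 (-1.03) and the retinoid enzyme Cyp26b1 at 597, 748, 415 and 334 (-0.83) went the other way. The list's summed signal was 13281, 10170, 13288 and 11391.

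CA3 markers were slightly lower, with 13 of 17 below 0, none at 2-fold and a median of -0.13. Grik4, the kainate receptor subunit, had 407, 365, 191 and 325 (-0.90), Cpne4 918, 619, 427 and 886 (-0.53) and the secreted Dkk3 3893, 2782, 2023 and 3218 (-0.46). Rgs14, a marker of CA2 as well, had 313, 325, 512 and 258 (0.64). The transcription factor Neurod6 had 3379, 2104, 1789 and 2382 (-0.23). The list's summed signal was 33340, 24622, 20845 and 30121, so both arrays with KA lay below both without it, and KA+NAP was the lowest.

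Dentate granule cell markers were lower with KA+NAP, with 15 of 17 below 0, 3 at least 2-fold lower and a median of -0.46 against 0.28 in NAP minus PBS. The 3 were Pdyn, Penk and Bdnf, described above, all of which seizure activity regulates in granule cells. Stxbp6 at 1529, 2383, 1355 and 1906 (-0.81), Sema5a at 552, 600, 353 and 672 (-0.75) and Calb1, calbindin, at 1727, 1901, 1198 and 2171 (-0.66) also lay below 0. Prox1, the defining transcription factor of granule cells, had 932, 753, 747 and 1194 (-0.01) and was level on the pair. The list's summed signal was 14917, 18903, 12127 and 17878. The share of each hippocampal field in the 2 samples was not tested beside these sums. Of 14 passing septal, thalamic and habenular markers 8 lay above 0 with a median of 0.05, and Cbln1 and Rprm, also kept there, were the 2 at least 2-fold lower, with Tac3 at 0.86 and Cbln2 at -0.70.

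**Figure D5:**
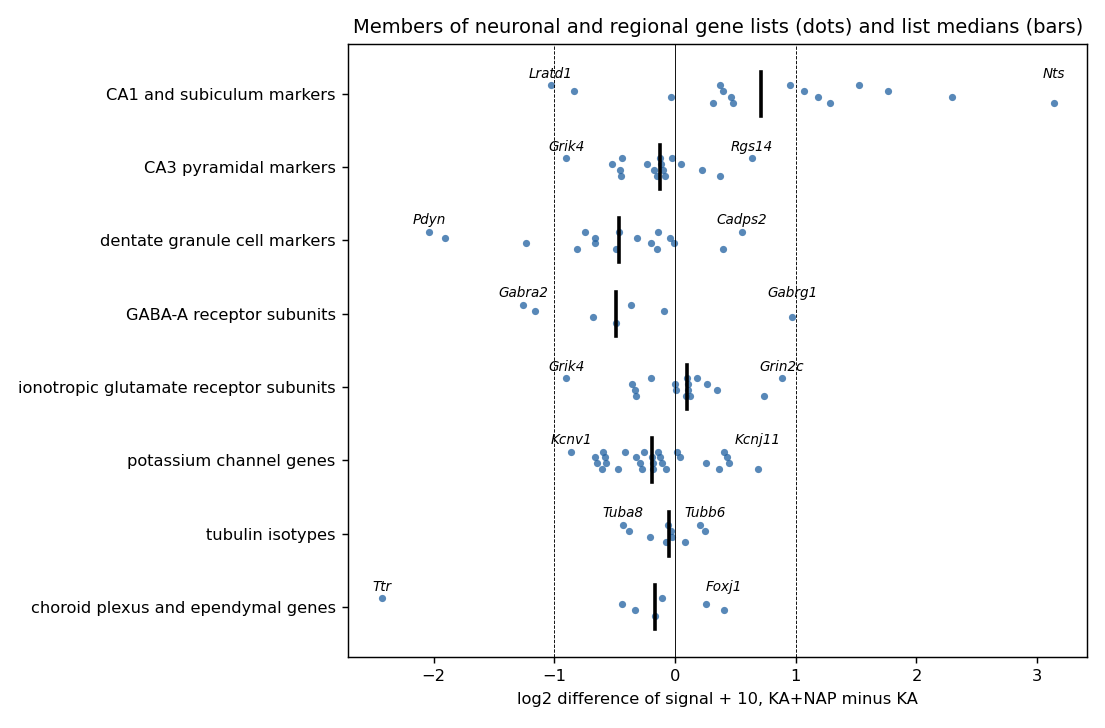
KA+NAP minus KA difference (horizontal, log2 of signal + 10) of each passing member of 8 lists (dots, spread vertically only for legibility), with the list median as a black bar and dashed lines at 2-fold, from 1 array per group. CA1 markers lie mostly to the right (median 0.72), CA3 markers near 0 (-0.13), dentate markers (-0.46) and GABA-A subunits (-0.49) to the left, with Nts (3.14) and Ttr (-2.43) at the ends of their lists.

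Inhibitory receptor genes were lower on the KA+NAP array. Of 17 GABA-A subunits listed 14 were on the array and 7 passed, 6 below 0, with a median of -0.49 against 0.27 in NAP minus PBS. Gabra2 had 661, 1026, 424 and 1022 (-1.26) and Gabra4 74, 95, 37 and 70 (-1.16), the 2 alpha subunits at least 2-fold lower. Gabra4 passed only through KA. With the filter on PBS and NAP 7 subunits passed, 6 below 0 and 2 at least 2-fold lower. Gabrb1 had 2279, 1906, 1190 and 2446 (-0.68) and Gabrb2 1635, 1796, 1276 and 2015 (-0.49). For these 4 subunits KA+NAP was the lowest of the arrays. Gabrd, the delta subunit of receptors outside synapses, had 224, 119, 90 and 302 (-0.37), and Gabra5 had 2982, 1578, 1483 and 2842 (-0.09), near KA and below both arrays without it. Gabrg1, which glia also express, was the exception at 122, 118, 241 and 149 (0.97). The list's summed signal was 8092, 6727, 4813 and 8949. Interneuron genes had a median of 0.02 over 17 members, with 9 above 0 and 7 below. Npy was the lowest, Crhbp had -0.76 and the interneuron factor Sox6 0.62. Gad1, the main GABA-synthesising enzyme, had 3714, 3661, 3316 and 4000 (-0.14).

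Excitatory receptors and synaptic genes were mostly close on the pair. The 17 passing ionotropic glutamate receptor genes had a median of 0.10, none reaching 2-fold, from the NMDA subunit Grin2c at 263, 135, 258 and 267 (0.89) and the AMPA auxiliary gene Cnih2 (0.73) to Grik4 and the kainate subunit Grik2 (-0.36). Metabotropic receptors had a median of -0.01 over 5 genes, Grm5 at 0.33, Grm8 at 0.20, Grm3 at -0.01, Grm2 at -0.09 and Grm7 at -0.73. No passing glutamate receptor gene of either kind reached 2-fold. Pan-neuronal and axonal genes had a median of 0.00 over 25, among them the vesicle calcium sensor Syt1 (-0.80), Elavl2 (-0.50) and the neurofilaments Nefm (-0.48) and Nefh (-0.41). The neuronal nuclear antigen gene Rbfox3 had 1263, 710, 902 and 1284 (0.34). Synaptic vesicle genes had a median of -0.08 over 30. Synpr, synaptoporin, a vesicle protein of mossy fibres, had 1878, 2270, 1075 and 2174 (-1.07) with -1.50 on its other probe set, and Stx1a, a fusion protein, had -0.69 and Rab3b 0.65. Postsynaptic scaffold genes had a median of -0.02 over 25, with Dlgap3 at 0.71, Homer3 at 0.64, Homer1 at -0.61 and Homer2 at 0.58. The other probe sets of Homer1 past the filter gave -0.57 to -1.26. The last of these had 598, 1395, 578 and 542, highest with KA.

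Channel genes leaned below 0. Potassium channel genes lay below 0 in 20 of 28 cases, with a median of -0.19 and none at 2-fold on its brightest probe set, the largest being the modifier Kcnv1 at 1005, 1005, 549 and 966 (-0.86), Kcnj11 (0.69), Kcnd3 (-0.66, with -0.09 on its other probe set) and the astrocyte channel Kcnj16 (-0.64, with -1.20 on its other probe set). Sodium, calcium and HCN channel genes had a median of -0.05 over 21. The T-type calcium channel gene Cacna1h had 74, 41, 126 and 164 (1.42) and Cacna2d3, an auxiliary subunit, 1937, 1737, 1043 and 1730 (-0.73), with Cacna1c at -0.55 and Scn3b at 0.41. On the brightest probe sets Cacna1h was the sole passing channel gene of either list at 2-fold, and it was also higher with NAP alone than with PBS. Only 15 of 43 amine, acetylcholine and related receptor genes passed, with Drd1, the dopamine D1 receptor, at 88, 88, 38 and 70 (-1.03), P2rx4, an ATP-gated channel of microglia and neurons, at 116, 130, 277 and 164 (1.04) and Htr4 at -0.84. Axon guidance genes lay below 0 in 20 of 29 cases, with a median of -0.15, where Epha7 had -0.81, Sema5a -0.75 and Slit2 -0.69 beside Efna5. The second probe set of Slit2 lay above 0 at 0.35. Efna5 passed only through KA.

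On their brightest probe sets Adnp and the EB protein genes were nearly level on the pair. Of 15 listed genes for ADNP, its partners, PACAP and VIP receptors and EB proteins 12 passed, 6 above 0 and 6 below, none at 2-fold, with a median of 0.01. Adnp had 1386, 1566, 1548 and 1386 (-0.02), with 0.31 and 0.12 on its other 2 probe sets, and its paralogue Adnp2 256, 294, 244 and 286 (-0.26). The EB protein genes were Mapre1 at 1079, 1556, 1502 and 1018 (-0.05), Mapre2 at 1006, 898, 883 and 864 (-0.02) and Mapre3 at 4045, 2666, 2727 and 4209 (0.03). On the brightest probe sets the differences of Adnp and the 3 EB genes ran from -0.05 to 0.03. The other probe sets gave 0.07 and -0.06 for Mapre1 and 0.38 for Mapre3, the last a dim one. The chromatin partners Chd4 (0.19), Cbx5 (0.31) and Smarca4 (0.23) lay a little above 0. The neuropeptide genes of the list were Vip, given above, and Adcyap1, which codes for PACAP, at 235, 171, 136 and 314 (-0.31). Their receptors were Adcyap1r1 at 795, 346, 407 and 981 (0.23) and Vipr1 at 133, 119, 78 and 154 (-0.55), while Vipr2 was dim at 7, 6, 5 and 10.

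Tubulin genes passed in 10 of 12 cases, 3 above 0 and 7 below, none at 2-fold, with a median of -0.05 and a summed signal of 26898, 26940, 27079 and 26169. Tubb6, a beta-tubulin induced after injury, had 40, 1616, 1923 and 128 (0.25), high on both arrays with KA. Tubb2b had 3622, 4697, 5432 and 3716 (0.21), Tubb2a 8684, 7361, 7809 and 8781 (0.09) and Tubb5 2319, 3073, 3020 and 2374 (-0.03, with 0.36 on its other probe set). Tubb3, the neuronal isotype, had 862, 774, 669 and 798 (-0.21), and the gamma-tubulin Tubg1 of the nucleating ring 394, 536, 513 and 453 (-0.06). Tubb4b had -0.07, Tuba4a 4206, 3367, 2587 and 4019 (-0.38) and Tuba8 822, 608, 448 and 715 (-0.43). Tubb4a had 707, 391, 383 and 692 (-0.03), with 0.00 and -1.36 on its other probe sets. Isotypes are close in sequence, and a probe set may read more than 1 of them. Microtubule-associated proteins had a median of -0.03 over 41 genes, none at 2-fold. The largest were Dpysl5 (0.80), the neuronal kinase Dclk1 at 2504, 5075, 3280 and 2315 (-0.63), the severing enzyme Spast (-0.60) and Dpysl3 (-0.45). The other probe sets gave 0.13 and -0.61 for Dclk1 and -0.10 for Spast.

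Stress and survival genes were mostly level. All 28 heat shock and co-chaperone genes on the array passed, none at 2-fold, with a median of -0.11. Hspa1a, the inducible heat shock chaperone, was the largest at 189, 496, 942 and 193 (0.91), followed by Dnajb6 (-0.62), Hspa4 (-0.56) and Dnajb5 (-0.51). Apoptosis genes had a median of 0.18 over 26, none at 2-fold, with the leukocyte survival gene Bcl2a1 at 55, 130, 239 and 53 (0.83), Casp1 (0.69), Xiap (0.68) and Ripk3 (0.62). Neither the passing chaperones nor the passing genes of cell death set KA+NAP apart from KA by the rule of size. Gadd45 and p53 target genes lay below 0 in 12 of 15 cases, with a median of -0.18. Besides Rprm and Perp, Ddit4 had -0.62 and Sesn2 0.60, while Cdkn1a, the cell cycle inhibitor p21, had 121, 303, 228 and 106 (-0.40). Antioxidant genes had a median of 0.14, with the metallothionein Mt2A at 1533, 1592, 3886 and 2278 (1.28), the mitochondrial carrier Ucp2 (0.92), the peroxidase Gpx1 (0.81) and Srxn1, sulfiredoxin, at 473, 928, 506 and 462 (-0.86). The other probe set of Srxn1 gave -1.53. ER stress genes had a median of 0.09, none of 24 at 2-fold, with Atf5 at 0.71, Creld2 at 0.52 and Sdf2l1 at 0.47.

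Genes of basic metabolism showed how small the differences of bright, shared genes were. Respiratory chain genes lay above 0 in 29 of 58 cases and below in 29, with a median of 0.00 and Ndufb8 (-0.69) the largest, then Cox8a (0.35), Ndufc2 (0.33) and Cox5a (0.31). Proteasome genes had a median of -0.04, from Psmd11 (0.50, with -0.02 on its other probe set) and Psmd1 (0.36) to Psma3 (-0.46). Ribosomal protein genes lay above 0 in 31 of 32 cases, with a median of 0.24 and none at 2-fold, led by Rpl18 (0.53), Rps24 (0.48), Rps9 (0.45) and Rpl21 (0.45). Nearly every passing ribosomal gene was thus slightly higher with KA+NAP, and no passing respiratory chain or proteasome gene reached 2-fold. Cholesterol synthesis genes had a median of -0.15, with Sc5d (0.54), Idi1 (-0.50), Fdft1 (-0.48) and Hsd17b7 (-0.47) the largest. The other 2 probe sets of Sc5d gave -0.49 and -0.01, so its direction depends on the probe set. Lipid carriers had a median of 0.18, with Apoc1 at 395, 97, 189 and 400 (0.90), Alb at -0.86, Pltp at 0.58 and Npc2 at 0.48. The cholesterol enzymes thus leaned below 0 and the lipid carriers above it. Detoxification enzymes had a median of 0.00, with the glutathione transferase Mgst1 at 415, 341, 794 and 686 (1.20), Cyp27a1 at -0.71 and Ephx1 at -0.70. Clock genes had a median of 0.08, with Npas2 at 200, 106, 225 and 217 (1.02), Hlf at 699, 94, 184 and 664 (0.90) and Dbp at 311, 102, 164 and 335 (0.64). Myelin and oligodendrocyte genes had a median of 0.09, with the lineage factor Sox10 at 71, 68, 153 and 58 (1.06), Nkx2-2 at 0.77, Ermn at -0.74 and Cspg4 at 0.71.

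NAP was also given without KA, and NAP minus PBS shares no array with KA+NAP minus KA. Across the 9489 genes the 2 differences correlated at r = 0.12 (Spearman rho 0.04), a description across genes, which are not independent. Of the 144 genes at least 2-fold higher with KA+NAP, 30 were also at least 2-fold higher with NAP alone, which is 20.8% of the 144 and 30.0% of the 100, beside the 1.05% of all genes given above. They included RT1-Ba, RT1-Db1, Cd74, Clec7a, Cybb, Cd68, Spp1, Mpeg1, Lcn2, Hbb and S100a9. Of the 144, 112 (77.8%) lay above 0 in NAP minus PBS, beside 54.0% of all genes. Of the 57 genes at least 2-fold lower, 0 were at least 2-fold lower with NAP alone, where 0.242% of all genes were, so nothing is read from that count, and 23 (40.4%) lay below 0, beside 45.2% of all genes. Pdyn, for instance, had 0.69 in NAP minus PBS, Penk 0.07, Npy 0.16 and Bdnf -0.03. No difference between the 2 peptide effects was tested, and KA+NAP minus KA shares the KA array with any comparison of KA with PBS, so the order of the 4 arrays is given above as signals only.

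Where a gene had several probe sets past the filter, the others gave a check of the array's reading. Among 2080 such genes 9 were at least 2-fold higher on the brightest probe set, and for 6 of them every probe set lay above 0, the exceptions being Dusp6, Ankrd11 and Fubp3. For 0 of the 9 did every probe set reach 2-fold. Of the 8 that were at least 2-fold lower, 7 had every probe set below 0, and 4 had every probe set at 2-fold. Lox was among them with -1.32 on its second probe set, and Nt5dc1 was the exception in sign. Of 3359 probe sets past the filter with no single gene name, 50 (1.49%) reached 2-fold upward and 34 (1.01%) downward. At the edge of the size rule, Pclaf had a difference of 1 and Maf of 0.9965, and on the other side Myom2 had -1 and Inhba -0.99.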

How the data were processed

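Each of the 4 arrays measured RNA of 1 group. Per the labels' protocols, 500 ng of total RNA was amplified by the array maker's protocol of 2 cycles and labelled with biotin. Per the submitters' processing notes, MAS5 made the values, but which version and background settings it had was not given in the sources used here. Deposited values are linear intensity values (signal), and their trimmed mean was about 250.1 on every array, so the authors' scaling was kept. They held 1180 zeros among 31099 probe sets.

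From the deposited intensity values log2(signal + 10) was computed, and differences between arrays were taken. Platform annotation gave 20832 probe sets 1 symbol and 436 several, with symbols updated through Entrez identifiers. The brightest probe set stood for each of 14217 genes, and 9489 with a mean signal above 62.75 were kept. Because that mean spans all 4 arrays, a high signal on the KA array alone or on the KA+NAP array alone can carry a gene past the filter, and a filter on the mean of PBS and NAP was added as an alternative after seeing the data. Differences on this scale understate those of dim genes.

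Genes named were the 20 highest and 20 lowest differences, the 4 largest of each of 58 lists, all members of 6 short lists and 10 genes of prior interest, and members of small counts, plus examples from the lists chosen after their values were seen. The members and lists were chosen with earlier results of these data known. The comparison was tested on simulated data. The pseudocount, the filter, the probe set rule and the scaling were varied. Python 3.11.15, numpy 2.4.6, pandas 2.3.3 and matplotlib 3.10.9 were used. Neither detection calls nor scan dates entered.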

Additional observations from a re-analysis of the deposited data

Results flagged for a closer look

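For 8 genes NAP lay at least 2-fold one way with KA (KA+NAP minus KA) and at least 2-fold the other way without it (NAP minus PBS). Whether the 2 differences differ was not tested, since each rests on 1 array a side. The differences with KA and without it were 2.29 and -1.03 for Pou3f1, a CA1 transcription factor, 1.53 and -1.98 for Fibcd1, a CA1 marker, and 1.77 and -3.03 for Car3, a carbonic anhydrase. They were 1.23 and -1.04 for Agap2, a GTPase-activating protein, 1.31 and -1.10 for Creg2, and 1.17 and -1.26 for Nkain3. In the other direction they were -2.48 and 1.20 for Cbln1, a synapse organiser, and -1.92 and 1.94 for Prss35. Car3 had signals of 617 with PBS, 126 with KA, 455 with KA+NAP and 67 with NAP.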

How the results depend on the processing

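The alternatives run were pseudocounts of 1 and 32, no filter, a filter at the 75th percentile, the mean over probe sets, quantile normalization and centring on the median. A filter on the mean of PBS and NAP was chosen after seeing the data. Under them no list median of at least 2-fold changed sign, nor did any named gene's difference of that size. For a single gene neither a pseudocount nor a filter can change the sign, so only the probe set mean and the scalings could. Of 86 named genes at 2-fold, the stricter filter kept 32 and that on PBS and NAP 66. Genes not named were not followed. Smaller values did change sign under some alternatives, namely the medians of 13 lists, all 0.24 or less in size, and the differences of 4 named genes (Adnp, Mapre3, Tubb2a and Tubb5), all 0.09 or less. The 144 higher genes in KA+NAP minus KA became 91 with a pseudocount of 32, 370 without a filter and 34 with the stricter filter, and the 57 lower genes became 194 without a filter and 22 with the stricter one. For NAP minus PBS the 100 higher genes became 66, 269 and 37 and the 23 lower genes 12, 189 and 5 with a pseudocount of 32, without a filter and with the stricter filter. The share of higher genes among those at 2-fold was 71.6%, and 60.7% with the stricter filter. Of 86 named genes at 2-fold, 11 were no longer so with a pseudocount of 32, and 5 with either scaling (Tyrobp, Fcgr3a, Stat2 and Npas2 with both, Sox10 with quantile normalization and P2rx4 with centring). Gabra4, Cdk1, Dusp9, Drd1 and Psmb9 were among the 11. Plac9 ranged from 1.08 to 3.77 and Htr5b from 1.24 to 2.63 with the pseudocount, and Dusp6 was 0.83 as a mean over probe sets. The Fc receptor median of 1.004 fell under 2-fold with a pseudocount of 32 (0.90), without a filter (0.86), with quantile normalization (0.97) and with centring (0.97), and the blood-derived myeloid median of 1.26 was 0.79 without a filter. The filter on PBS and NAP gave 114 higher and 48 lower genes. The red cell list median was 0.00 without a filter. No paired analysis was possible because each group has 1 array, and for the same reason no array could be left out. Signal over background was not examined.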
